A study of Saccharomyces cerevisiae with 2 samples.

Results

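The *UTP* and *NOP* genes encode nucleolar proteins that build ribosomes. They were chosen by name, as the nuclear ORFs whose standard symbol in the R64 annotation of *Saccharomyces cerevisiae* is UTP or NOP followed by a digit. This rule gave 35 genes (18 *UTP* and 17 *NOP*) of the 5775 nuclear ORFs in a table of 9633 transcripts, and used no measured value. Another 9 ORFs carry such a name only as a synonym, such as *PWP2* (UTP1). Those in the UtpA and UtpB complexes are given beside them, and the 9 are summarized together at the end.

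Ribosome synthesis starts in the nucleolus, where RNA polymerase I transcribes the long precursor of the ribosomal RNAs. The U3 snoRNA and the Utp proteins assemble on the leading part of this precursor as the small subunit processome, in which the UtpA, UtpB and UtpC complexes are separate building blocks. Box C/D proteins take part in 2′-O-methylation of rRNA and also bind U3, whereas H/ACA proteins take part in pseudouridylation. Many Nop proteins accompany the precursor of the large subunit. The nuclear exosome, helped by the TRAMP complex, trims the precursors and degrades the excised spacers. In budding yeast these genes are known to be transcribed together with growth, and many carry the PAC and RRPE sequence elements upstream.

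RNA-seq read densities were compared between an *xrn1*∆ *trf4*∆ strain and a *trf4*∆ strain, both in the BY4741 background and grown exponentially and asynchronously in YPD. Both strains lack Trf4p, a poly(A) polymerase of TRAMP, and the double mutant also lacks Xrn1p, the cytoplasmic 5′–3′ exoribonuclease, so that the comparison asks what the loss of Xrn1p changes in cells without Trf4p. Each strain is represented by 1 library from 1 culture, so no difference has a replicate check, no p-value is given, and a difference between the strains cannot be told apart from a difference between the cultures. In RNA from a whole culture, less of an mRNA per cell and fewer cells that hold it cannot be told apart either.

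The densities are normalized reads per nucleotide, and multiplied by gene length they gave whole reads for all 35 genes. The double mutant had 12121664 such reads over ORFs and *trf4*∆ had 7455598. *XRN1* had 111 reads in *xrn1*∆ *trf4*∆ against 7272 in *trf4*∆, and *TRF4* had 1 read against 0. The genes studied here had between 136 and 6576 reads each in *xrn1*∆ *trf4*∆ (median 1255) and between 86 and 7136 in *trf4*∆ (median 714). They lie on 13 chromosomes, span 177 to 7482 nucleotides, overlap no other annotated gene, and every 50-nt stretch of their sequence is unique in the genome. Each log2 ratio below is that of *xrn1*∆ *trf4*∆ over *trf4*∆ density. For a single gene it is followed in brackets by an exact 95% interval that covers counting error only. The bracket after a median is an order-statistic interval, which reflects the spread between genes and not between cultures.

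The sequences upstream were read first, since shared elements are what is known to tie these genes together. The 300 bases before each start codon were searched on both strands for the core of PAC, GATGAG, and the core of RRPE, AAAATTTT, which reads the same on both strands and cannot share a base with PAC. The PAC core was found before 30 of the 35 genes (85.7%), against 18.8% of 5769 ORFs. RRPE was found before 23 genes (65.7%), against 9.66% of ORFs, and both elements stood before 20 genes (57.1%), against 4.61% of ORFs. *UTP22* and *UTP30* had neither. The copy of PAC nearest to the start codon lay at a median of 107 bases before it (68 to 204) and that of RRPE at 125 bases (33 to 225). A match describes the letters only and says nothing of binding.

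**Figure D1:**
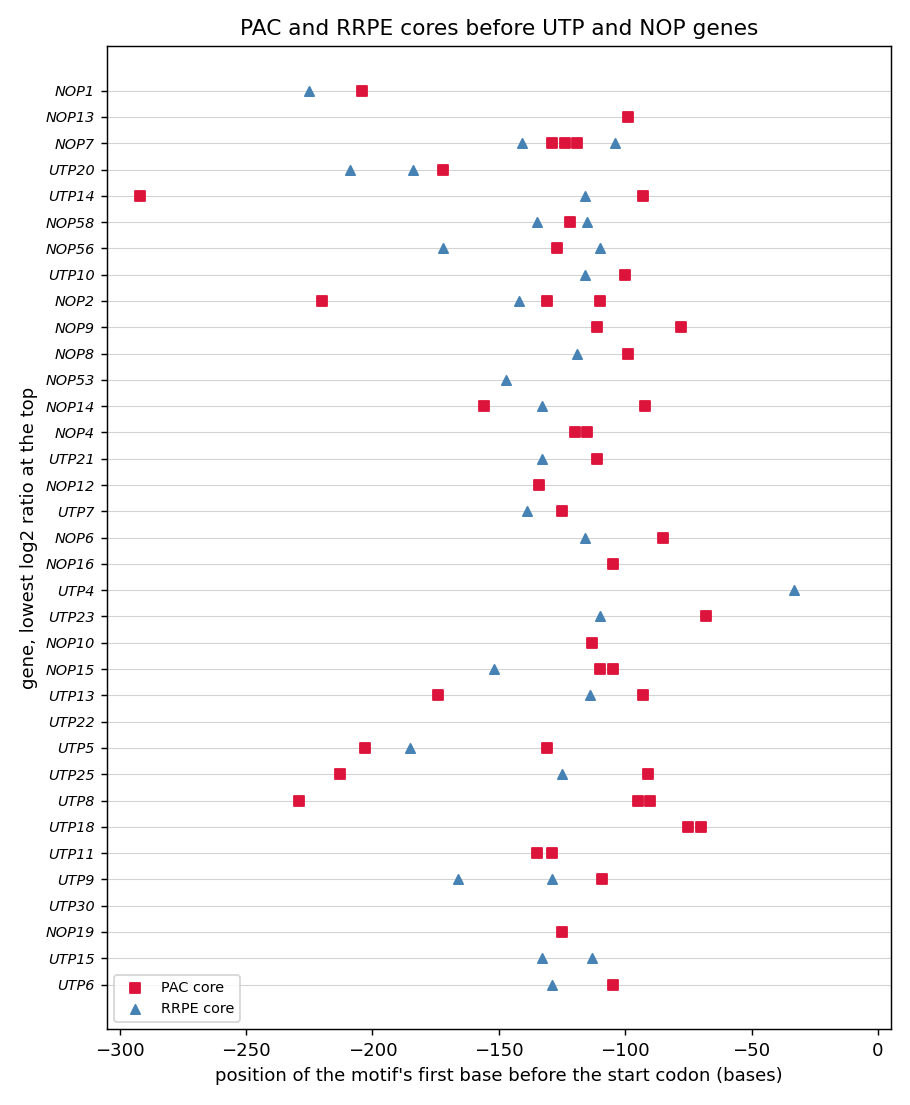
Position of each PAC core (squares) and RRPE core (triangles) in the 300 bases before the start codon of the 35 *UTP* and *NOP* genes, in bases, ordered by log2 ratio with the lowest at the top. The nearest copies have median distances of 107 bases for PAC and 125 bases for RRPE, and both kinds occur from the top to the bottom of the order.

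The stretches that hold these elements are shown for *NOP1*, *NOP7* and *UTP20*, which have the lowest log2 ratios among genes with both elements. That of *NOP58*, a partner of *NOP1*, is added. The 3 genes with the highest log2 ratios are shown whichever elements they hold, so the low and high ends were not chosen alike. *NOP13*, whose log2 ratio of -0.94 is lower than that of *NOP7*, holds PAC alone and is not shown. Capitals mark the PAC core, which appears as CTCATC where it lies on the other strand, and the RRPE core. Each stretch is written 5′ to 3′ on the coding strand of its gene, with 10 bases on either side of the outermost element, from RefSeq's R64 assembly. That of *NOP1* is chrIV:427129-427175 (plus strand), that of *NOP7* chrVII:695266-695330 (plus), that of *UTP20* chrII:227417-227479 (plus) and that of *NOP58* chrXV:898458-898505 (minus). That of *NOP19* is chrVII:995504-995529 (plus), that of *UTP15* chrXIII:453872-453919 (plus) and that of *UTP6* chrIV:1358992-1359041 (minus).
NOP1: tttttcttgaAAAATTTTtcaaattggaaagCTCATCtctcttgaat
NOP7: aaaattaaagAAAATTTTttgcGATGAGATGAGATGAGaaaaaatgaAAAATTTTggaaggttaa
UTP20: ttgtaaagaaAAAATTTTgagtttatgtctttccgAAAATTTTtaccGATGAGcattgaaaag
NOP58: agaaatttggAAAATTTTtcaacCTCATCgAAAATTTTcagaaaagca
NOP19: aatttctagcGATGAGattggaaaaa
UTP15: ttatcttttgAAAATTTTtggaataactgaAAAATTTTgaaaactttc
UTP6: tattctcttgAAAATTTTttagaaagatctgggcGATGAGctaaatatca
*NOP7* and *UTP6* thus both hold RRPE followed by PAC and lie near opposite ends of the range of log2 ratios, while *UTP15* holds RRPE alone and *NOP19* PAC alone.

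The log2 ratios of these genes lay low relative to those of other ORFs, although their densities in *xrn1*∆ *trf4*∆ were near the middle of ORFs. Their median log2 ratio was -0.01 (95% interval of the median -0.19 to 0.43), against 0.78 (0.75 to 0.81) over the 5638 ORFs detected in both libraries. The difference of -0.80 between these medians stays the same under any scaling between the libraries. Of the 35 genes, 31 had a log2 ratio below the ORF median (50% of ORFs do), and the 4 above it were *UTP30*, *NOP19*, *UTP15* and *UTP6*. The counting interval lay wholly below the ORF median for 29 genes (40.5% of ORFs) and wholly above it for 3 (39.1% of ORFs). Only for *UTP9*, *UTP11* and *UTP30* did the interval hold the ORF median.

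The rank among ORFs in each library gives the same comparison without a ratio. The median percentile of these genes among ORF densities was 49.8 in *xrn1*∆ *trf4*∆ and 66.3 in *trf4*∆, and 31 of the 35 stood at a lower percentile in *xrn1*∆ *trf4*∆ (50.8% of ORFs). Their share of ORF reads was 0.552% (exact 95% interval 0.548 to 0.557) in *xrn1*∆ *trf4*∆ and 0.644% (0.638 to 0.650) in *trf4*∆. *NOP1* carries much of that difference in reads, since without it the shares were 0.520% in *xrn1*∆ *trf4*∆ and 0.553% in *trf4*∆.

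ORFs of higher density had lower log2 ratios, which bears on the size of the difference. Over the 2819 ORFs in the upper part of the density range, those with a mean log2 density above its median, the log2 ratio had a median of 0.51, which leaves a difference of -0.53. All 35 genes were kept for this difference, so density was not matched. Their median densities were 0.476 in *xrn1*∆ *trf4*∆ and 0.441 in *trf4*∆, against 1.03 and 0.667 for these ORFs. Across the *UTP* and *NOP* genes the log2 ratio and the mean log2 density had a Spearman's rho of -0.15 (n = 35), and across ORFs -0.32 (n = 5638). These are descriptions, since all points share the same 2 libraries and the density enters both measures.

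Under the authors' normalization the log2 ratios of these genes spread to both sides of 0. In all, 18 genes were lower in *xrn1*∆ *trf4*∆ (18% of ORFs) and 17 were higher. The interval lay wholly below 0 for 12 genes (13.2% of ORFs) and wholly above 0 for 14 (75.5% of ORFs). Only *NOP1* was lower by more than 2-fold (2.63% of ORFs), and *UTP6*, *UTP15* and *NOP19* were higher by more than 2-fold (40.1% of ORFs). These counts depend on the scale. Median scaling, which sets the median density of ORFs equal in both libraries, adds -0.94 to every log2 ratio, after which 32 of the 35 were lower (57.6% of ORFs) and 16 were lower by more than 2-fold (16.2% of ORFs).

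**Figure D2:**
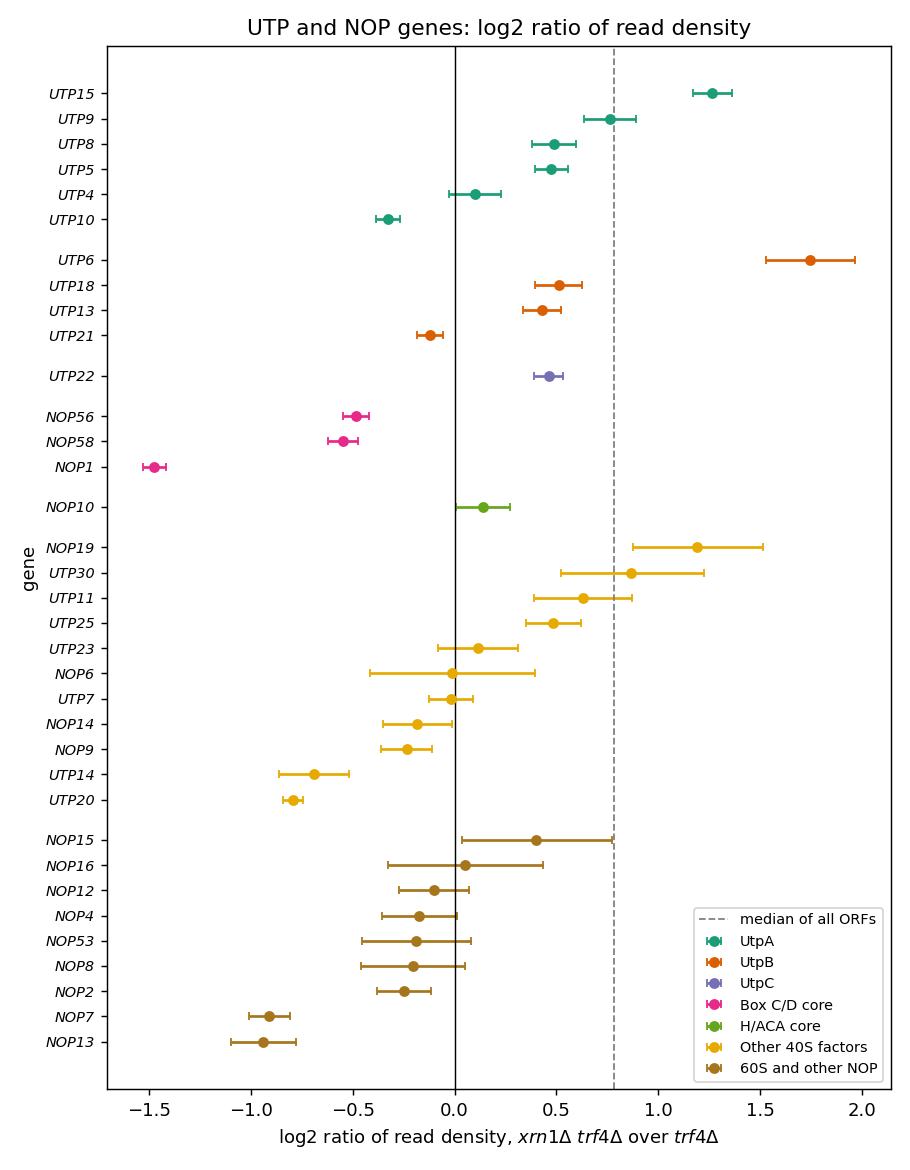
Log2 ratio of read density, *xrn1*∆ *trf4*∆ over *trf4*∆, of the 35 *UTP* and *NOP* genes grouped by complex. Points are single genes, bars are exact 95% counting intervals, the solid line marks equal density under the authors' normalization, and the dashed line marks the ORF median of 0.78, which 31 of the 35 points lie below.

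The genes were also described by name, with no test between the names. The 18 *UTP* genes had a median log2 ratio of 0.47 (-0.02 to 0.63), with 5 lower (27.8%, against 18% of ORFs) and 13 higher in *xrn1*∆ *trf4*∆, although the median turned to -0.48 with median scaling and to -0.32 with a trimmed mean of the log2 ratios of ORFs set to 0. The 17 *NOP* genes had a median of -0.19 (-0.48 to -0.01), with 13 lower (76.5%) and 4 higher, and their median was below 0 under every scaling tried. The intervals of these medians overlap, but they reflect the spread between genes, which are not replicates, and do not compare the names. Below the ORF median lay 15 of the 18 *UTP* genes and 16 of the 17 *NOP* genes (50% of ORFs do). *UTP* genes took 0.386% of ORF reads in *xrn1*∆ *trf4*∆ and 0.372% in *trf4*∆, and *NOP* genes 0.167% in *xrn1*∆ *trf4*∆ and 0.272% in *trf4*∆.

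**Figure D3:**
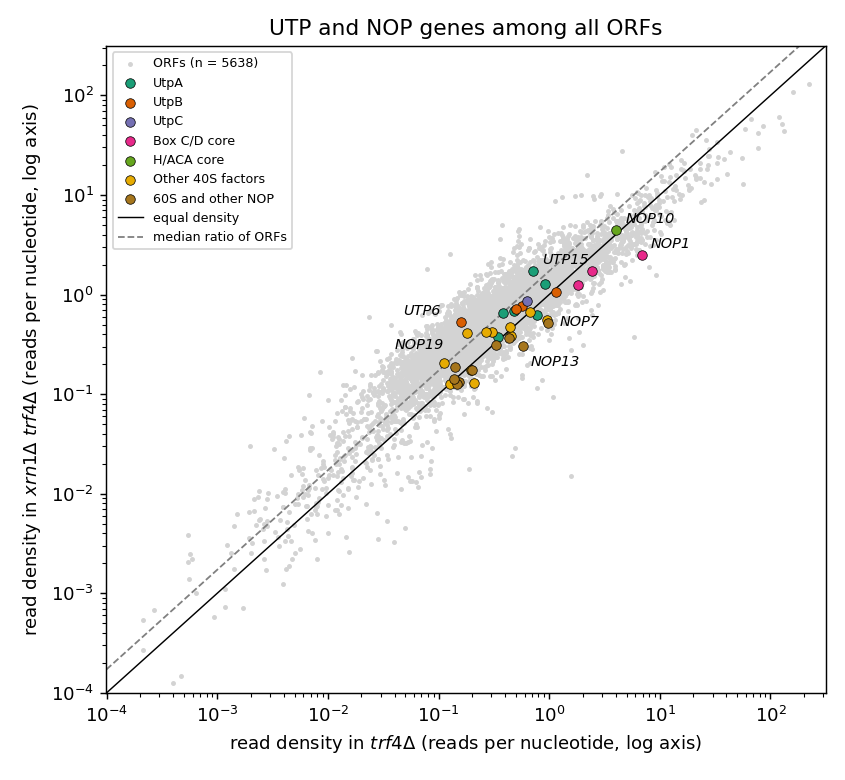
Read density (normalized reads per nucleotide, log axes) in *xrn1*∆ *trf4*∆ against that in *trf4*∆ for 5638 ORFs (grey) and the *UTP* and *NOP* genes (coloured by complex). The solid line marks equal density and the dashed line the median ratio of ORFs. *NOP1* lies farthest below the solid line among these genes, and *UTP6* farthest above it.

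UtpA binds the precursor first and its subunits are also linked to rDNA transcription. The mRNAs of its subunits differed widely in their log2 ratios. *UTP15* had a read density of 1.73 in *xrn1*∆ *trf4*∆ against 0.719 in *trf4*∆, a log2 ratio of 1.27 (1.17 to 1.36), and its percentile among ORFs was 86.6 against 77.1. *UTP10*, the largest subunit, had densities of 0.617 and 0.774 in the same order and a log2 ratio of -0.33 (-0.38 to -0.27). The log2 ratios of these partners differed by 1.59, and their intervals did not overlap.

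The other subunits of UtpA lay between these values. *UTP9* had a density of 0.655 in *xrn1*∆ *trf4*∆ against 0.386 in *trf4*∆ (log2 ratio 0.76, 0.63 to 0.89), and its interval holds the ORF median. *UTP8*, also known for a part in nuclear tRNA export, had 0.676 against 0.481 (log2 ratio 0.49, 0.38 to 0.60), and *UTP5* had 1.28 against 0.923 (0.48, 0.39 to 0.56). *UTP4*, whose human counterpart is Cirhin, had 0.371 against 0.346, a log2 ratio of 0.10 whose interval holds 0 (-0.03 to 0.23). With *NAN1* (UTP17), at 0.827 against 0.775 (0.09, 0.02 to 0.17), UtpA numbered 7 genes, 6 of them below the ORF median (50% of ORFs are). The densities of the 7 spanned 4.66-fold in *xrn1*∆ *trf4*∆, from *UTP4* to *UTP15*, and 2.67-fold in *trf4*∆, from *UTP4* to *UTP5*. Each span rests on its highest and lowest gene only.

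UtpB is an elongated complex that holds the leading spacer together with U3. *UTP6*, a HAT-repeat subunit, had the highest log2 ratio of all 35 genes. Its density was 0.530 in *xrn1*∆ *trf4*∆ (1120 reads) against 0.158 in *trf4*∆ (209 reads), a log2 ratio of 1.75 (1.53 to 1.97), and its percentile among ORFs was 53.9 against 35.7. *UTP21*, a WD40-repeat subunit, had 1.07 against 1.16, a log2 ratio of -0.12 (-0.19 to -0.06). The log2 ratio of *UTP6* exceeded that of *UTP21* by 1.87.

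The remaining subunits of UtpB stood close to each other. *UTP13* had a density of 0.761 in *xrn1*∆ *trf4*∆ against 0.566 in *trf4*∆ (log2 ratio 0.43, 0.34 to 0.52), and *UTP18* had 0.713 against 0.50 (0.51, 0.40 to 0.63). Of the subunits that carry the name as a synonym, *PWP2* had 0.723 against 0.604 (0.26, 0.17 to 0.35) and *DIP2* (UTP12) 0.641 against 0.599 (0.10, 0.01 to 0.19). The densities of the 6 genes spanned 2.01-fold in *xrn1*∆ *trf4*∆ and 7.34-fold in *trf4*∆, which is the reverse of UtpA, since *UTP6* was near its partners in the double mutant and far below them in *trf4*∆.

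UtpC is represented by *UTP22*, which had a density of 0.865 in *xrn1*∆ *trf4*∆ (5130 reads) against 0.628 in *trf4*∆ (2332 reads), a log2 ratio of 0.46 (0.39 to 0.53). Its partner in that complex, *RRP7*, had 0.350 against 0.123, and its log2 ratio of 1.51 (1.21 to 1.82) was the highest of the other ribosome biogenesis genes. One of these neighbours in the complex thus lay below the ORF median and the other above it.

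**Figure D4:**
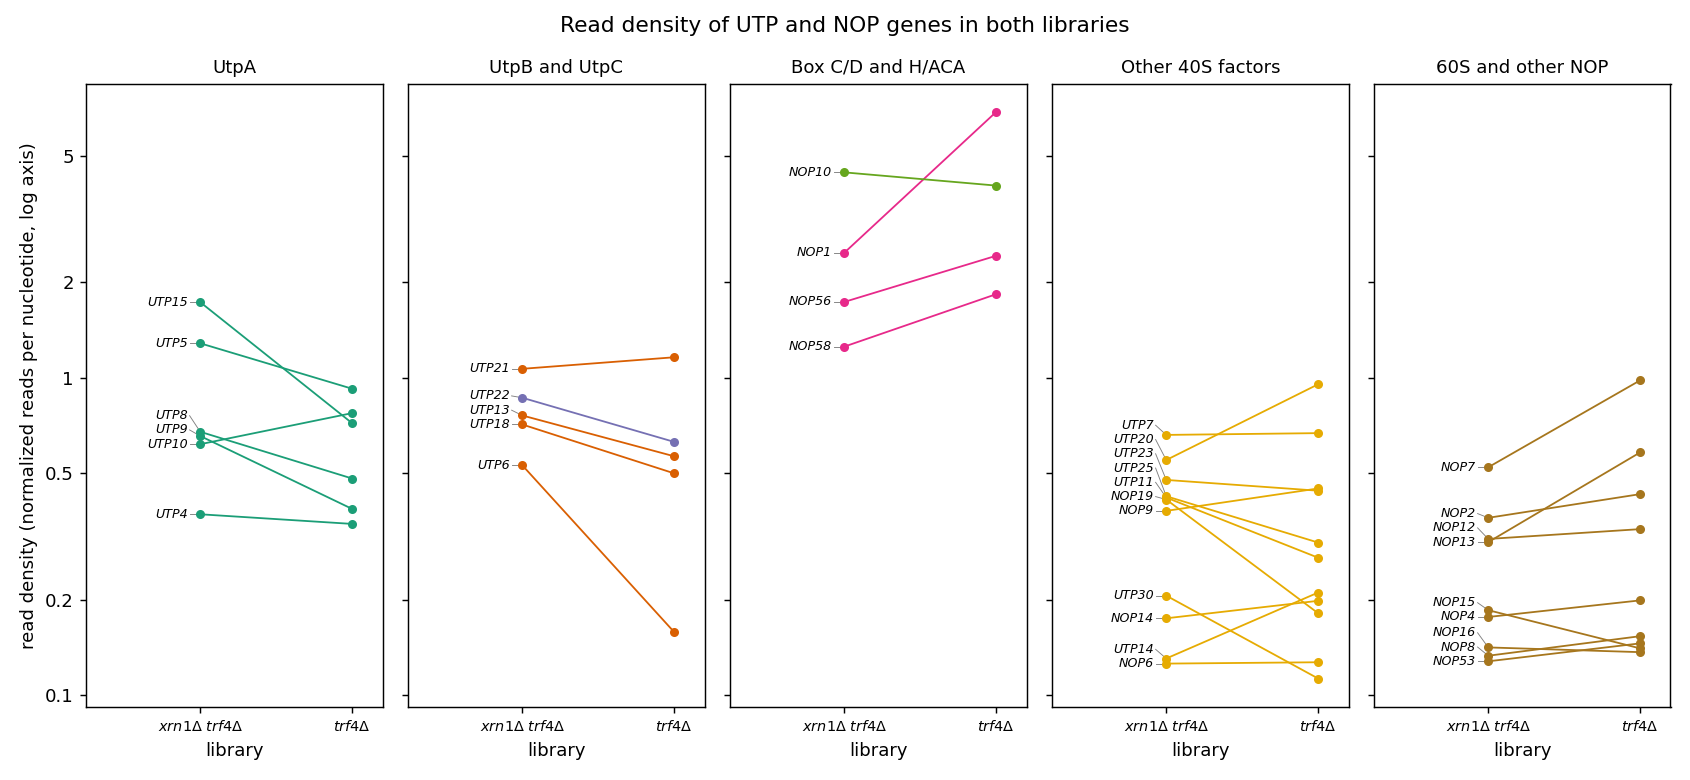
Read density (normalized reads per nucleotide, log axis) of the *UTP* and *NOP* genes in *xrn1*∆ *trf4*∆ (left) and *trf4*∆ (right), with 1 line per gene and 1 panel per complex or group. *UTP15* and *UTP10* cross in UtpA, *UTP6* stands near its partners in the double mutant and far below them in *trf4*∆, and the 3 box C/D genes all stand lower in *xrn1*∆ *trf4*∆.

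The genes of the box C/D core proteins had the lowest median log2 ratio of the complexes. *NOP1*, the methyltransferase fibrillarin, had a density of 2.48 in *xrn1*∆ *trf4*∆ (3891 reads) against 6.88 in *trf4*∆ (6773 reads). Its density was thus 2.78-fold lower in the double mutant, with a log2 ratio of -1.47 (-1.53 to -1.42), the lowest of all 35. In *xrn1*∆ *trf4*∆ it was the second most abundant mRNA of the group per nucleotide, after *NOP10*, at the 91.3rd percentile of ORFs, and in *trf4*∆ it was the most abundant, at the 97.9th.

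*NOP56* and *NOP58*, which form the scaffold that holds Nop1p on the RNA, had close log2 ratios. *NOP56* had a density of 1.73 in *xrn1*∆ *trf4*∆ against 2.42 in *trf4*∆ (log2 ratio -0.48, -0.55 to -0.42), and *NOP58* had 1.25 against 1.83 (-0.55, -0.62 to -0.48). The log2 ratio of *NOP58* lay -0.07 from that of *NOP56* and the intervals overlap, whereas that of *NOP1* lay -0.99 from that of *NOP56*. *NOP1* was 1.43 times as dense as *NOP56* in *xrn1*∆ *trf4*∆ and 2.84 times as dense in *trf4*∆. The fourth core protein, *SNU13*, which is shared with the spliceosome, had 2.98 against 3.64 (-0.29, -0.39 to -0.19). All 4 intervals lay below 0 (13.2% of ORFs). The 3 *NOP* genes together took 0.092% of ORF reads in *xrn1*∆ *trf4*∆ and 0.178% in *trf4*∆.

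The U3 snoRNA itself, which these proteins bind, is encoded by a pair of near-identical genes, so its uniquely placed reads are only part of the whole. *snR17a* had a density of 170 in *xrn1*∆ *trf4*∆ against 588 in *trf4*∆ (log2 ratio -1.79), and *snR17b* had 11.7 against 84.0 (-2.84). All 81 sn/snoRNAs of the table were lower in *xrn1*∆ *trf4*∆. Whether this goes together with the mRNAs of their proteins was not tested.

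The H/ACA core is represented by *NOP10*, a very small protein whose gene is the shortest of the group. *NOP10* had a density of 4.44 in *xrn1*∆ *trf4*∆ (1255 reads) against 4.03 in *trf4*∆ (714 reads). Its log2 ratio of 0.14 (0.005 to 0.27) barely cleared 0, and its percentile among ORFs was 96.5 against 95.5. The pseudouridine synthase *CBF5* had 0.966 against 1.83 (-0.92, -1.0 to -0.84), *GAR1* had 4.28 against 5.64 (-0.40, -0.46 to -0.33) and *NHP2* had 1.37 against 1.5 (-0.13, -0.27 to 0.01). *NOP10* was therefore the only one of the 4 H/ACA genes with a higher density in the double mutant under the authors' normalization. That direction turned with median scaling (-0.81). All 4 genes lay below the ORF median (50% of ORFs do).

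The other 11 proteins of the small subunit precursor had log2 ratios between -0.79 and 1.19 and a median of -0.01. Under the authors' normalization 6 of 11 were lower (54.5%, against 18% of ORFs). *UTP20*, a very large helical-repeat protein and the longest gene of the group, had a density of 0.550 in *xrn1*∆ *trf4*∆ against 0.954 in *trf4*∆ (log2 ratio -0.79, -0.84 to -0.74). *UTP14*, which activates the helicase Dhr1 to release U3, had 0.130 against 0.210 (-0.69, -0.86 to -0.52). At the other end, *NOP19* had 0.413 against 0.181 (1.19, 0.88 to 1.51), on 390 and 107 reads in the same order.

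The rest of these 11 genes lay between those values. *UTP30*, a protein related to ribosomal protein L1, had the lowest density of the group in *trf4*∆, with 0.206 in *xrn1*∆ *trf4*∆ against 0.113 (log2 ratio 0.87, 0.52 to 1.22). *UTP11* had a log2 ratio of 0.63 (0.39 to 0.87) and *UTP25*, related to DEAD-box helicases, 0.49 (0.35 to 0.62). For *UTP7* (-0.02), *NOP6* (-0.01) and *UTP23* (0.11), a PIN-domain protein, the intervals held 0 under the authors' normalization. *NOP9*, a Pumilio-like RNA-binding protein, had a log2 ratio of -0.23 (-0.36 to -0.11), and *NOP14* had -0.18 (-0.35 to -0.01). *NOP6* rests on the fewest reads of all 35 genes, 136 in *xrn1*∆ *trf4*∆ and 86 in *trf4*∆, and its interval spans -0.41 to 0.39.

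The 9 *NOP* genes of the large subunit and other Nop proteins lay below the ORF median without exception (50% of ORFs do). For all 9 the interval did so too (40.5% of ORFs). Their median log2 ratio was -0.19, and 7 of 9 were lower under the authors' normalization (77.8%, against 18% of ORFs). *NOP13*, an RNA-binding protein, had a density of 0.303 in *xrn1*∆ *trf4*∆ against 0.582 in *trf4*∆ (log2 ratio -0.94, -1.10 to -0.78), and its percentile among ORFs was 33.5 against 72.8. *NOP7*, the yeast pescadillo, had 0.522 against 0.981 (-0.91, -1.01 to -0.81), at percentiles of 53.1 and 82.2 in the same order. These were the lowest log2 ratios of the group after *NOP1*.

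Under the authors' normalization the others of this set were nearer to equal density. *NOP2*, an rRNA cytosine methyltransferase, had a log2 ratio of -0.25 (-0.38 to -0.11), and *NOP12*, a relative of *NOP13*, had -0.10 (-0.28 to 0.07). *NOP8* had -0.20 (-0.46 to 0.05), *NOP4* -0.17 (-0.36 to 0.01) and *NOP16* 0.05 (-0.33 to 0.43), and all of these intervals hold 0. *NOP15* had the highest log2 ratio of the set, 0.40 (0.04 to 0.77), with a density of 0.185 in *xrn1*∆ *trf4*∆ against 0.140 in *trf4*∆. With median scaling the log2 ratios were -1.19 for *NOP2*, -1.05 for *NOP12*, -1.15 for *NOP8*, -1.12 for *NOP4*, -0.89 for *NOP16* and -0.54 for *NOP15*.

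*UTP18* and *NOP53* are the genes of the group tied most directly to TRAMP, since their proteins recruit its helicase Mtr4p, and with it the exosome, to the precursors of the small and the large subunit. Their log2 ratios differed beyond counting error, since the intervals did not overlap. *UTP18* had a log2 ratio of 0.51 (0.40 to 0.63, and -0.43 with median scaling), while *NOP53* had a density of 0.128 in *xrn1*∆ *trf4*∆ (279 reads) against 0.145 in *trf4*∆ (199 reads), a log2 ratio of -0.19 whose interval holds 0 (-0.46 to 0.08). *MTR4* itself had 0.594 against 0.831 (-0.49, -0.56 to -0.41). *TRF5*, which encodes the other poly(A) polymerase of TRAMP and is intact in both strains, had 0.185 against 0.0918 (1.01, 0.77 to 1.27). The interval of *TRF5* holds the ORF median of 0.78, and 40.1% of ORFs were higher by more than 2-fold.

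The log2 ratios of the other genes of the pathway stood in a similar place. A list of 109 further ribosome biogenesis genes had a median log2 ratio of 0.18 (0.01 to 0.26). Of these, 43 were lower in *xrn1*∆ *trf4*∆ under the authors' normalization (39.4%, against 18% of ORFs). Below the ORF median lay 95 (87.2%, against 50% of ORFs). The highest of the 109 were *RRP7*, *RCL1* (1.43, 1.29 to 1.57), a protein of the small subunit processome, and *SLX9* (1.27, 1.01 to 1.54). The lowest were *NOG2*, a GTPase of the large subunit (-1.33, -1.38 to -1.29), *BMS1*, a GTPase of the processome (-1.16, -1.34 to -0.99), and *RRP5*, a scaffold of both subunits (-1.12, -1.17 to -1.07). *NOG2* holds a snoRNA gene in its intron, so its reads are uncertain.

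RNA polymerase I and the ribosomal proteins were set beside them. All 7 subunits particular to RNA polymerase I that were listed lay below the ORF median (50% of ORFs do), with a median log2 ratio of 0.26. The large subunits *RPA190* and *RPA135* were lowest at -0.95 and -0.62. The 137 cytoplasmic ribosomal protein genes had a median log2 ratio of 0.09 (-0.005 to 0.21), with 123 below the ORF median (89.8%, against 50% of ORFs). Log2 ratios mostly below the ORF median were thus shared by these lists, and differences between them were not tested. Density, which goes with the log2 ratio across ORFs, was not matched. Ribosomal protein genes had a median percentile among ORFs of 96.0 in *xrn1*∆ *trf4*∆ and 95.2 in *trf4*∆, against 49.8 and 66.3 for *UTP* and *NOP* genes. Median scaling, with its shift of -0.94, took the medians of all 4 lists below 0, and that of ORFs to -0.16.

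**Figure D5:**
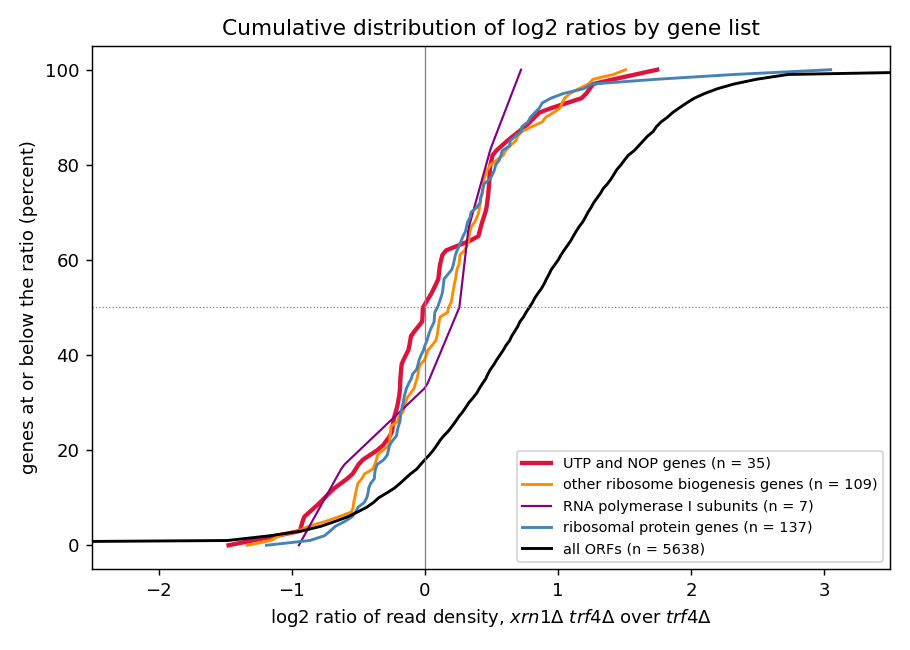
Cumulative distribution of log2 ratios, *xrn1*∆ *trf4*∆ over *trf4*∆, for *UTP* and *NOP* genes (n = 35), other ribosome biogenesis genes (n = 109), RNA polymerase I subunits (n = 7), ribosomal protein genes (n = 137) and all ORFs (n = 5638). The vertical axis is the percent of genes at or below a ratio, and at 50 percent the curves lie, in the order given, at -0.01, 0.18, 0.26, 0.09 and 0.78. At the low end the curve of all ORFs crosses the others.

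The upstream elements were then set against the log2 ratios. The 20 genes with both PAC and RRPE had a median of -0.15, the 10 with PAC alone 0.09, the 3 with RRPE alone (*NOP53*, *UTP4* and *UTP15*) 0.10, and *UTP22* and *UTP30*, with neither, 0.66. The ranges overlapped widely, from -1.47 to 1.75 with both elements and from -0.94 to 1.19 with PAC alone. The other ribosome biogenesis genes held PAC in 89.9% and RRPE in 79.8% of cases, and ribosomal protein genes held them in 11.7% and 6.57%. Whether the elements go with the log2 ratios was not tested.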

How the data were processed

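The authors sequenced rRNA-depleted total RNA on a SOLiD instrument, aligned it to the S288c genome with Bowtie 0.12.7, kept uniquely placed reads and deposited a read density per transcript, a coverage signal in reads per nucleotide normalized on total ORF reads. SAMtools is also named in the submitters' processing notes. The annotation release and the use of strand are not given in the sources used here, so antisense reads may enter a density. Both value columns were used and 0 were left out.

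Names, lengths and sequences came from RefSeq R64. The build of the files is not stated, and densities multiplied by R64 lengths were whole reads, within 0.01, for 5738 of 5770 ORFs (99.4%), 1 read being worth 1 in *trf4*∆ and 0.626 in *xrn1*∆ *trf4*∆. The median ORF had 978.5 reads in *xrn1*∆ *trf4*∆ and 316 in *trf4*∆. Main values are log2 ratios without a pseudocount. Single genes carry exact (Clopper-Pearson) 95% intervals of their reads, and medians order-statistic intervals. Intervals of single genes cover counting error only, and reads were not counted by molecular identifiers, so copies of 1 molecule may count as several reads. Intervals of medians reflect the spread between genes. "Past 2-fold" means a log2 ratio above 1 or below -1.

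The genes and lists were chosen with earlier results of these data known. Full values were given by rule to members of UtpA, UtpB, UtpC, box C/D and H/ACA, the 3 highest and 3 lowest log2 ratios, the 3 highest densities, *UTP18* and *NOP53*. Other members named, and partners of the complexes outside the rule, were chosen after their values were seen. Alternatives were 3 scalings (median ORF density, a 30% trimmed mean, equal sums of ORF densities), a pseudocount (0.01 or 0.1), a minimum of 0.05 for the mean density, other sets of background ORFs, the mean, and synonyms. The functions were tested on simulated data. Values were computed in Python 3.11.15 with pandas 2.3.3, SciPy 1.17.1 and NumPy 2.4.6, and plotted with matplotlib 3.10.9.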

Additional observations from a re-analysis of the deposited data

How the results depend on the processing

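With 1 library per strain, no alternative tests the spread between cultures, and no paired analysis was possible because each strain has 1 library. Of 73 medians, differences and counts under alternatives, 62 stayed within the interval or the 1.5-fold limit of the main value, but some cannot move by construction, such as the difference of medians under a scaling. Among the log2 ratios of single genes, 35 of 35 left their intervals with the median ORF density, 35 with the trimmed mean and 8 with equal sums. A change of scale adds one amount to every log2 ratio, -0.94 for the median ORF density, -0.78 for the trimmed mean and -0.08 for equal sums, so directions depend on it and positions relative to the ORF median do not. With the median ORF density, the *UTP* and *NOP* genes had a median log2 ratio of -0.96. Under it 32 were lower (57.6% of ORFs) and 16 lower by more than 2-fold (16.2% of ORFs), and the medians were -0.48 for *UTP* and -1.13 for *NOP* genes. With the trimmed mean the median was -0.80, with 31 lower and 10 lower by more than 2-fold, and the medians were -0.32 for *UTP* and -0.97 for *NOP* genes. Equal sums left 2 genes lower by more than 2-fold (3.05% of ORFs). The 3 genes above 0 after division by the median ORF density were *NOP19*, *UTP15* and *UTP6*. The difference from the ORF median was -0.80 in the main analysis and between -0.52 (pseudocount of 0.1) and -0.82 (mean density of at least 0.05) elsewhere. With the 9 synonyms added, 38 of 44 genes lay below the ORF median (86.4%, against 50% of ORFs).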

Other observations

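The 9 genes that carry UTP or NOP only as a synonym had a median log2 ratio of 0.46 (0.09 to 0.88) under the authors' normalization, close to the 0.47 of the *UTP* genes. Of these, 1 was lower in *xrn1*∆ *trf4*∆ (11.1%, against 18% of ORFs) and 7 lay below the ORF median (77.8%, against 50% of ORFs). The highest was *FCF1* (UTP24), the endonuclease that cuts the precursor of the small subunit rRNA, with a density of 1.35 in *xrn1*∆ *trf4*∆ against 0.654 in *trf4*∆ (log2 ratio 1.04, 0.87 to 1.21). *NOC4* (UTP19) followed at 0.88 (0.77 to 0.99). The only one below 0 was *NPL3* (NOP3), an mRNA-binding protein of export and splicing, at -0.27 (-0.32 to -0.22). Partners of U3 also differed, with *IMP3* at 1.11 (0.91 to 1.32), *IMP4* at 0.44 (0.23 to 0.65) and *MPP10* at -0.08 (-0.20 to 0.05), although their proteins form 1 complex.

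The upstream elements were also counted among ORFs that belong to neither ribosome biogenesis list, after the values of the *UTP* and *NOP* genes had been seen. The 167 of these ORFs with both PAC and RRPE had a median log2 ratio of 0.46 (0.28 to 0.59), and the 276 with RRPE alone had 0.43 (0.31 to 0.64). The 754 with PAC alone had 0.80 (0.71 to 0.90), and the 4292 with neither had 0.84 (0.81 to 0.88). Density, which goes with the log2 ratio across ORFs, was not matched between these classes, and its part in the difference was not tested.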
